A study of Caenorhabditis elegans with 15 samples.

Results

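The 5 wild-type libraries of an RNA-seq series in the nematode Caenorhabditis elegans differed among themselves in transcripts of sperm, and they are described here as 2 sets. Libraries 2 and 4 were high in sperm gene counts, and libraries 1, 3 and 5 were low. The sets were chosen by these measured counts and not from any label, with more embryo transcripts already seen in libraries 1, 3 and 5. The difference between the sets is therefore a description and carries no test. They hold 2 and 3 of the 15 libraries of the series.

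The study set 3 strains side by side, each with 5 libraries of poly(A) RNA from whole worms on day 1 of adulthood under non-stress conditions. The strains were a double mutant of genotype atfs-1(tm4525);fndc-1(rny14), its fndc-1(rny14) single mutant and the wild-type strain N2. The labels record no agent and no transgene in any group. They do not say whether the libraries of a strain came from separate cultures, so the spread between them may be technical.

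A C. elegans hermaphrodite makes its sperm in the last larval stage, then switches its germ line to oocytes, and lays the first embryos soon after it has become an adult. Sperm carry large amounts of major sperm protein (MSP), which drives the crawling of the sperm and, once released, signals to oocytes. The adult cuticle is built of collagens that the skin makes around the last moult. Transcripts of sperm and of the last moult are therefore features of worms near the larva-to-adult transition, while transcripts of zygotic genes come from embryos held in the uterus.

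Total counts were 47476306 and 54592191 in libraries 2 and 4, and 46984106, 54784942 and 61921123 in libraries 1, 3 and 5. Levels below are in CPM, counts scaled to the size of each library with TMM factors, and levels of different genes are not compared with each other, since CPM takes no account of gene length. Libraries 2 and 4 were the closest pair, with a chi-square of 13.5 per gene, taken over genes that had 50 or more counts between them. Libraries 3 and 5 gave 31.8, while library 1 lay at 53.2 from library 3 and at 81.2 from library 5. Pairs across the sets gave 75.7 to 103. Library 1 therefore stood about as far from library 5 as libraries 2 and 4 did, and no library repeated another within sampling noise. In RNA from whole worms, fewer cells of a type and less RNA per cell cannot be told apart.

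A sperm score was taken as the mean centred log2 CPM over 85 genes of the sperm lists. It was 0.74 and 0.46 in libraries 2 and 4, and -1.80, -1.77 and -1.90 in libraries 1, 3 and 5. MSP genes held 0.0328% and 0.0265% of all counts in libraries 2 and 4, and 0.0044%, 0.00436% and 0.00373% in libraries 1, 3 and 5. Within each set the libraries were close, and no library lay between the sets. The mutant libraries ran over a wider range, with scores of 0.05 to 2.31 in the double mutant and -0.74 to 1.29 in fndc-1, so that every mutant library stood above wild-type libraries 1, 3 and 5.

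A gene was counted as separated where both of libraries 2 and 4 lay on the same side of all of libraries 1, 3 and 5, where the set means differed at least 2-fold, and where the higher mean reached 1 CPM. Of 11815 genes that reached 1 CPM, 795 (6.73%) were higher in libraries 2 and 4 and 99 (0.838%) were lower. The log2 difference of means, libraries 2 and 4 over libraries 1, 3 and 5, had a median of -0.01 over all these genes. Among the higher genes, 65 belonged to the sperm lists and 730 did not, 379 were at least 4-fold higher, and 428 averaged under 1 CPM in libraries 1, 3 and 5. The lower genes differed less, with 8 of 99 at least 4-fold lower and a median fold of 2.25, against a median fold of 3.77 for the higher ones. At the threshold, ZC328.3 was just inside at 2.001-fold higher and C18E9.9 just outside at 1.995-fold, and on the lower side fbxb-53 was inside at 2.001-fold and C35E7.3 outside at 1.998-fold. With no fold minimum the sets failed to overlap for 2983 genes higher and 2207 lower, so the excess of higher genes sits mainly in the large differences.

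**Figure D1:**
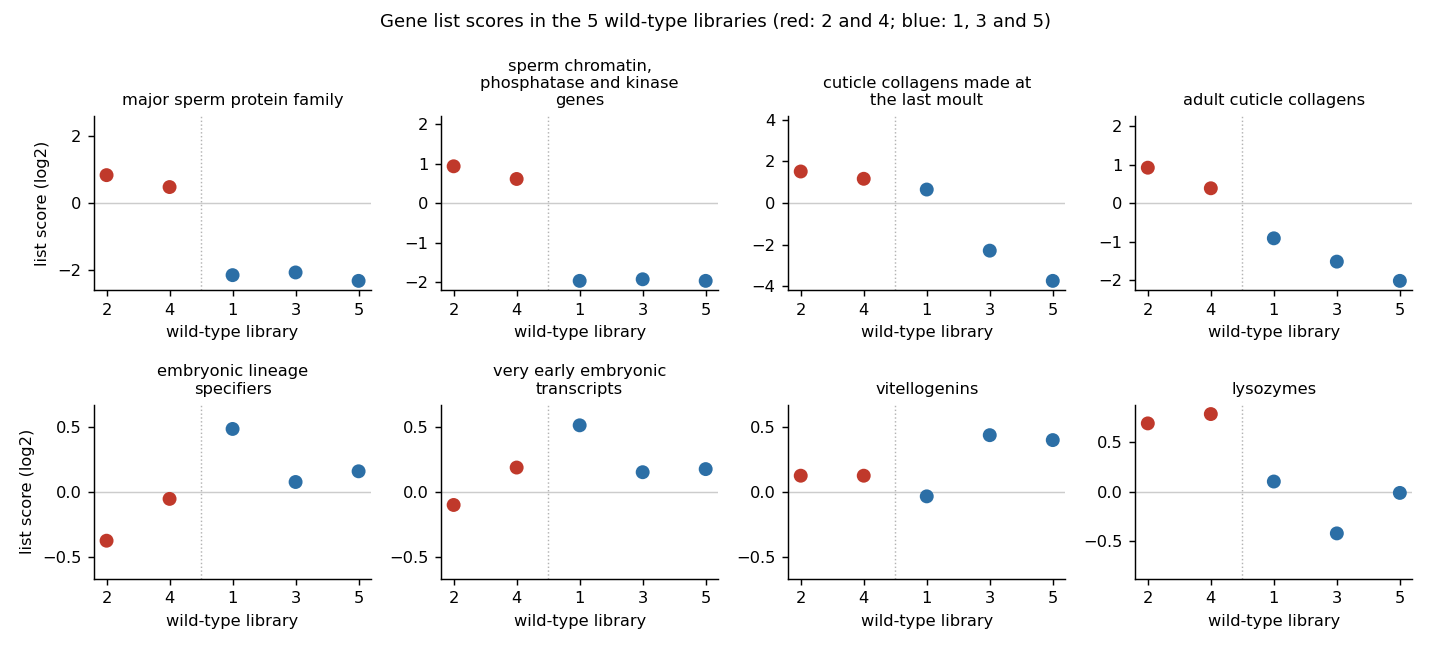
List scores (mean centred log2 CPM of the list members, zero being the mean over all 15 libraries) in the wild-type libraries 2 and 4 (red) and 1, 3 and 5 (blue), 1 point per library, each panel with its own symmetric axis. The 2 sperm lists divide into 2 tight sets, while for the last-moult collagens library 1 (0.65) lies near libraries 2 and 4 (1.52 and 1.17) and far from libraries 3 and 5 (-2.28 and -3.73).

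The sperm lists describe what set the libraries apart. Of 31 MSP genes, 27 reached 1 CPM, and all 27 were higher in libraries 2 and 4, by 5.74-fold to 9.59-fold. Their summed level was 339 and 269 CPM in libraries 2 and 4, and 42.4, 45.1 and 37.9 CPM in libraries 1, 3 and 5. The remaining 4 genes were msp-32, at 0 in all 5 libraries, and msp-58, msp-63 and msp-74, under 1 CPM throughout. msp-59 (WBcel235, chromosome IV, 5312728 to 5313111) had 24.3 and 17.95 CPM in libraries 2 and 4, and 3.00, 3.08 and 2.46 CPM in libraries 1, 3 and 5. msp-51 (chromosome IV, 5294957 to 5295340) had 23 and 18.9 CPM in libraries 2 and 4, and 2.77, 2.83 and 2.15 CPM in libraries 1, 3 and 5. MSP genes are near-identical copies and the handling of reads that map to several of them is not given in the sources used here, so their sum is firmer than the split between them.

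Other sperm products followed the same division. Among 31 genes of other MSP-domain and small sperm protein families, 24 reached 1 CPM and 23 were separated, all higher. ssq-4, of the sperm-specific family class Q (chromosome IV, 5016479 to 5017766), had 26.1 and 18.8 CPM in libraries 2 and 4, and 2.03, 2.72 and 2.77 CPM in libraries 1, 3 and 5. ssq-2 had 22.3 and 16.9 CPM in libraries 2 and 4, and 1.99, 3.34 and 2.97 CPM in libraries 1, 3 and 5. All 9 genes of the list of sperm chromatin proteins, phosphatases and kinases were higher, with a median log2 difference of 2.92. spch-3, which encodes a sperm chromatin protein, had 13.9 and 10.7 CPM in libraries 2 and 4, and 1.25, 1.11 and 1.08 CPM in libraries 1, 3 and 5. gsp-3, a phosphatase of sperm, had 7.21 and 5.30 CPM in libraries 2 and 4, and 0.677, 0.736 and 0.772 CPM in libraries 1, 3 and 5.

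Of 27 genes needed for sperm to form or fertilise, 11 reached 1 CPM. Of these 11, 6 were separated and higher, with a median log2 difference over the 11 of 1.33. The list sum overlapped between the sets, at 175.9 and 165 CPM in libraries 2 and 4, and 144, 167.5 and 167.7 CPM in libraries 1, 3 and 5. spe-11, whose product the sperm brings to the egg, had 2.74 and 1.69 CPM in libraries 2 and 4, and 0.185, 0.189 and 0.230 CPM in libraries 1, 3 and 5, where both groups were low and did not overlap. fer-1, needed for the fusion of membranous organelles, had 1.61 and 1.21 CPM in libraries 2 and 4, and 0.226, 0.529 and 0.607 CPM in libraries 1, 3 and 5. The regulators of spermatogenesis and of the choice between sperm and oocyte were level. None of 17 was separated, and the median log2 difference of the 16 at 1 CPM was -0.06.

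Somatic male markers were near 0 in both sets. None of 12 somatic male markers reached 1 CPM in a set mean, the highest value in any wild-type library was 0.513 CPM (cwp-4), and their sums overlapped at 1.52 and 1.49 CPM in libraries 2 and 4, and 1.48, 1.28 and 1.56 CPM in libraries 1, 3 and 5. cwp-3, a gene of male sensory neurons, was at 0 in all 5 wild-type libraries.

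Outside the sperm lists, the genes with a gene-class symbol and the widest gaps between the sets included several with no cuticle or moulting role. gipc-2, a PDZ-domain gene (chromosome IV, 10026413 to 10027666), had 17.8 and 14.4 CPM in libraries 2 and 4, and 2.46, 1.98 and 1.82 CPM in libraries 1, 3 and 5. gipc-1 (chromosome III, 4870778 to 4872261) had 12.26 and 9.02 CPM in libraries 2 and 4, and 1.56, 1.45 and 1.53 CPM in libraries 1, 3 and 5. Both genes had one narrow level per set, as the sperm genes had. msrp-2 (log2 difference 3.02), the sodium-neurotransmitter symporter family gene snf-5 (2.91) and the proton-driven myo-inositol transporter gene hmit-1.1 (2.88) showed gaps of like size.

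**Figure D2:**
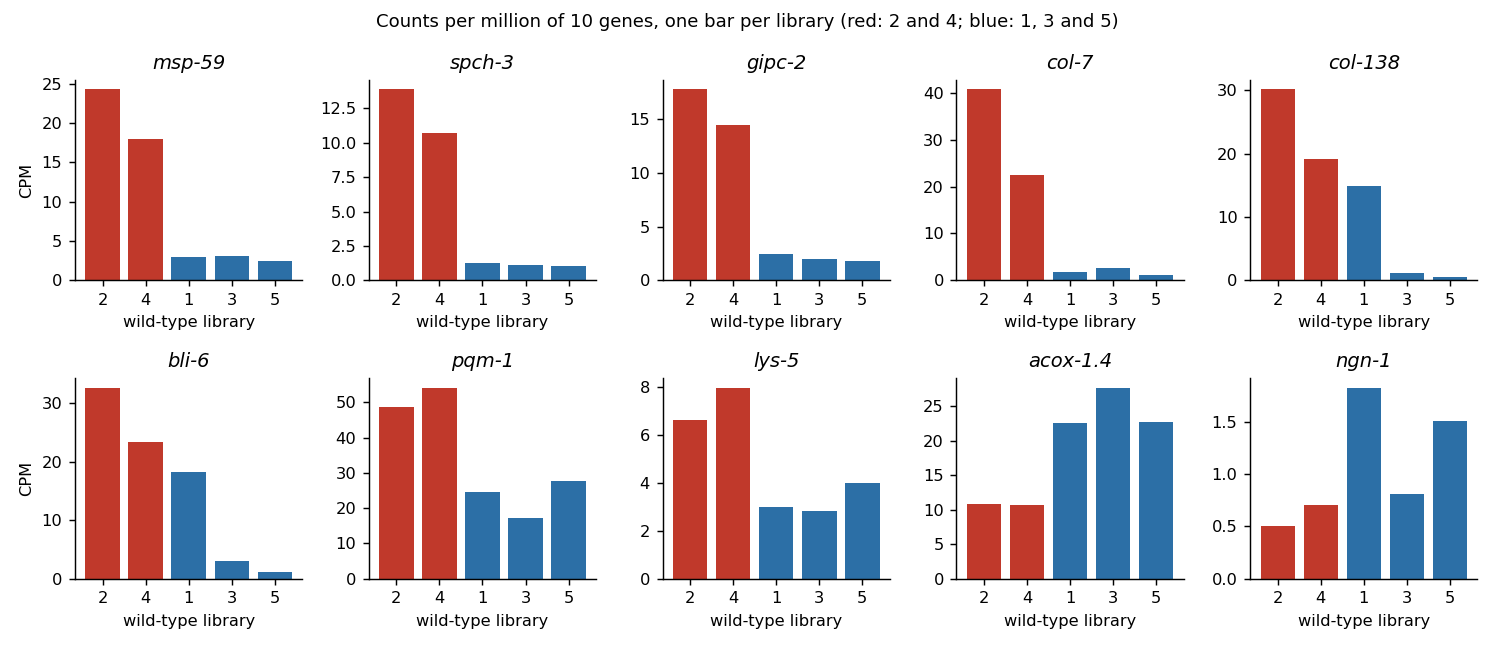
CPM of 10 genes in each wild-type library, 1 bar per library, libraries 2 and 4 in red and libraries 1, 3 and 5 in blue, each panel on its own axis from 0. msp-59, spch-3 and gipc-2 take 1 level per set, col-138 and bli-6 are high in library 1 as well, and acox-1.4 and ngn-1 are lower in libraries 2 and 4.

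Embryonic transcripts were lower in libraries 2 and 4 in part only. Over the lineage specifiers, transcription factor genes that assign embryonic cells to their fates, the list score was -0.38 and -0.06 in libraries 2 and 4, and 0.49, 0.08 and 0.16 in libraries 1, 3 and 5, with no overlap. Of 18 members at 1 CPM, 15 had a lower mean in libraries 2 and 4 with a median log2 difference of -0.55. At any fold 12 members were lower without overlap and 2 were higher, where 18.7% and 25.2% of all genes at 1 CPM were, and 1 member passed the 2-fold rule. The last was ngn-1, a neurogenin (chromosome IV, 2626062 to 2628271), with 0.501 and 0.707 CPM in libraries 2 and 4, and 1.83, 0.812 and 1.51 CPM in libraries 1, 3 and 5. Library 3 lay close to library 4 there, and without library 1 no member of the list was separated.

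The very early embryonic transcripts, made when the zygotic genome first turns on, summed to 89.9 and 96.6 CPM in libraries 2 and 4, and 142.3, 117.2 and 107.2 CPM in libraries 1, 3 and 5. The sums did not overlap, yet the list scores did, at -0.10 and 0.19 in libraries 2 and 4, and 0.51, 0.15 and 0.18 in libraries 1, 3 and 5. The median log2 difference of the 8 members at 1 CPM was -0.65. sdz-35 went the other way, with 1.11 and 1.49 CPM in libraries 2 and 4, and 0.226, 0.378 and 0.378 CPM in libraries 1, 3 and 5. Of 17 late embryonic and hatching genes none was separated, and their scores overlapped. A greater load of embryo transcripts in libraries 1, 3 and 5 was known when the sets were drawn, so these values are no independent support for them. The load was seen without overlap in the score of the lineage specifiers and in the sum of the very early transcripts. It was not seen so in the score of the very early list or of the late one, and most of these differences were below 2-fold.

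Oocyte and germline lists were nearly level. None of 15 eggshell and oocyte surface genes, 26 maternal mRNA regulators or 35 meiosis and germline genes was separated, with median log2 differences of -0.09, -0.08 and -0.06. The 6 vitellogenins, which encode yolk proteins made in the intestine, gave no separated member. Their sum was 84640 and 89830 CPM in libraries 2 and 4, and 67960, 94120 and 94320 CPM in libraries 1, 3 and 5. Library 1 was the lowest and the sets overlapped. vit-2 had 24060 and 27130 CPM in libraries 2 and 4, and 16260, 24110 and 23820 CPM in libraries 1, 3 and 5. vit-1, vit-3 and vit-4 were lower in libraries 2 and 4 with no overlap, and vit-1 had 1879 and 1658 CPM in libraries 2 and 4, and 2176, 3437 and 2770 CPM in libraries 1, 3 and 5. pqm-1, a zinc-finger transcription factor on the list of vitellogenin regulators, had 48.7 and 54.2 CPM in libraries 2 and 4, and 24.7, 17.3 and 27.6 CPM in libraries 1, 3 and 5.

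Cuticle collagens gave more of the higher genes than any other list examined outside those of sperm. Of 157 col genes, 108 reached 1 CPM, with a median log2 difference of 1.09 over the 108. Of these, 58 (53.7%) were higher and 2 (1.85%) were lower, beside 6.73% and 0.838% of all genes at 1 CPM. The list of collagens made at the last moult had 7 of 8 members (87.5%) higher, with a median of 2.01. Its sum was 146 and 104 CPM in libraries 2 and 4, and 79.3, 9.69 and 4.58 CPM in libraries 1, 3 and 5. The spread inside the low set exceeded 10-fold, and library 1 stood near library 4.

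Single members show the same step. col-138 (chromosome IV, 17182884 to 17183729) had 30.1 and 19.1 CPM in libraries 2 and 4, and 14.9, 1.11 and 0.476 CPM in libraries 1, 3 and 5. bli-6, one of the collagens that shape the struts of the adult cuticle (chromosome IV, 6377065 to 6378168), had 32.6 and 23.3 CPM in libraries 2 and 4, and 18.1, 3.02 and 1.17 CPM in libraries 1, 3 and 5. col-38 had 28.1 and 21 CPM in libraries 2 and 4, and 14.7, 2.47 and 2.07 CPM in libraries 1, 3 and 5. For each of these the sets did not overlap, and library 1 was closer to library 4 than to library 3. The eighth member, col-63, had 12.8 CPM in library 4 against 12.9 CPM in library 1 and so was not separated.

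Other collagens did not share this step. col-7, of the adult cuticle list, had 40.7 and 22.4 CPM in libraries 2 and 4, and 1.79, 2.61 and 1.22 CPM in libraries 1, 3 and 5, a log2 difference of 4.08. Here library 1 lay between libraries 3 and 5. col-62 had 39 and 19.5 CPM in libraries 2 and 4, and 4.02, 2.27 and 2.23 CPM in libraries 1, 3 and 5. col-124 was separated at much smaller fold, with 1259 and 1013 CPM in libraries 2 and 4, and 605, 649 and 401 CPM in libraries 1, 3 and 5. In the same list col-19 was not separated, with 1126 and 945 CPM in libraries 2 and 4, and 749, 702 and 579 CPM in libraries 1, 3 and 5, and neither was col-119. Over all col genes the sum overlapped between the sets, at 21700 and 16890 CPM in libraries 2 and 4, and 18310, 18370 and 12990 CPM in libraries 1, 3 and 5.

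The dpy, rol and sqt collagens, named for the body shape of their mutants, had 5 of 17 members (29.4%) separated and higher, beside 6.73% of all genes. By means alone, 9 were higher and 8 lower in libraries 2 and 4. Their sum overlapped between the sets, at 213.8 and 261.8 CPM in libraries 2 and 4, and 269.1, 108.2 and 406.5 CPM in libraries 1, 3 and 5. dpy-13 had 29.8 and 20.8 CPM in libraries 2 and 4, and 15.4, 5.74 and 4.88 CPM in libraries 1, 3 and 5. dpy-4 and dpy-5 had log2 differences of 1.46 and 1.45, and rol-6 one of 1.32. In each, library 1 was the highest of the low set. Without library 1 the count of separated higher members was 8 of 17, and for the col genes it was 60, which held all of the 58.

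Where library 1 lay was measured for each separated gene on the log2 scale, with 0 at the mean of libraries 3 and 5 and 1 at the mean of libraries 2 and 4. For the 65 sperm list genes the median place was 0.03 and none lay above 0.5. For the 58 col genes it was 0.45, and 24 (41.4%) lay above 0.5. For the 672 other higher genes it was 0.07, with 51 (7.59%) above 0.5. For the 99 lower genes the median place was -0.32, so library 1 was the farthest from libraries 2 and 4 for many of them. Library 1 was put with libraries 3 and 5 for its low sperm counts, so the place of the sperm genes near 0 follows from the choice of sets. A portion of the collagens divided the wild-type libraries otherwise than the sperm counts did, and 1 score from low to high does not order the 5 libraries for both.

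**Figure D3:**
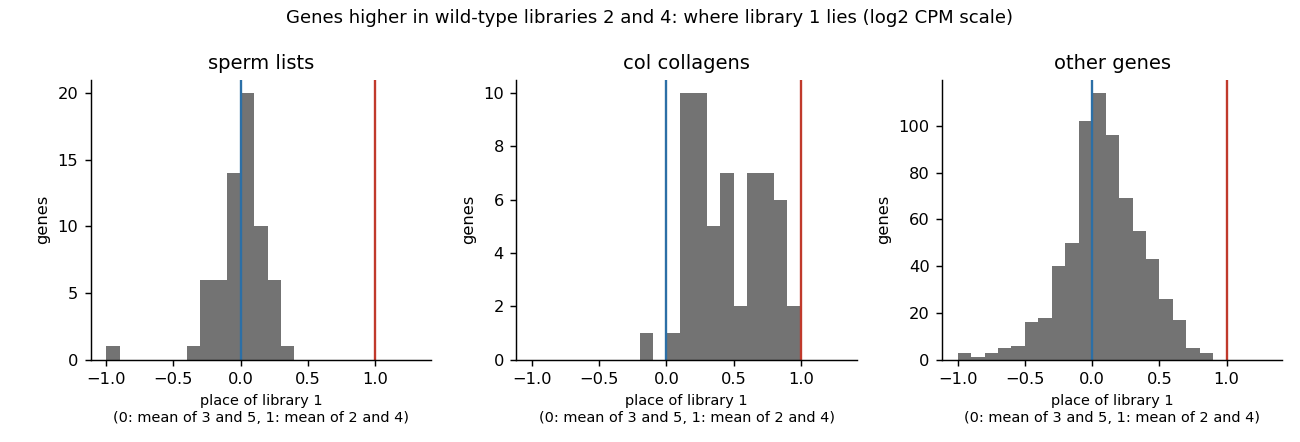
Number of genes by the place of library 1 between the mean of libraries 3 and 5 (0, blue line) and the mean of libraries 2 and 4 (1, red line), for genes higher in libraries 2 and 4, with values below -1 drawn at -1. The sperm list genes gather around 0 (median 0.03), and the col genes spread from 0 towards 1 (median 0.45).

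Moulting and skin genes gave separated members at differing shares, beside 6.73% higher and 0.838% lower of all genes at 1 CPM. Of 84 hedgehog-related and patched-related genes, many of them made in the skin during moults, 43 reached 1 CPM. Of these 43, 6 (14%) were higher and 1 (2.33%) was lower. grd-6, a groundhog-family gene, had 4.60 and 4.69 CPM in libraries 2 and 4, and 0.759, 0.453 and 0.739 CPM in libraries 1, 3 and 5. grl-16 had 27.1 and 23.9 CPM in libraries 2 and 4, and 12.2, 3.02 and 9.16 CPM in libraries 1, 3 and 5. Of 26 moulting-cycle genes, qua-1 alone was separated (log2 difference 1.17), or 4.17% of the 24 at 1 CPM. None of 11 heterochronic genes, which time larval stages, was separated.

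Genes of defence and metabolism gave separated members at shares that differed between families, beside 6.73% higher and 0.838% lower of all genes at 1 CPM. Of 16 lysozymes, 12 reached 1 CPM, all 12 had a higher mean in libraries 2 and 4, and 5 were separated, with a median log2 difference of 0.80. lys-5 (chromosome IV, 11624252 to 11625582) had 6.60 and 7.96 CPM in libraries 2 and 4, and 3.00, 2.81 and 4.01 CPM in libraries 1, 3 and 5. lys-6 had 22.5 and 26.9 CPM in libraries 2 and 4, and 14.1, 9.27 and 13 CPM in libraries 1, 3 and 5. Of 240 C-type lectins 77 reached 1 CPM, of which 11 (14.3%) were higher and 2 lower. The higher ones included clec-47, with 167 and 190 CPM in libraries 2 and 4, and 99.9, 65.1 and 71.1 CPM in libraries 1, 3 and 5. Unlike the sperm and collagen genes named above, these genes were a little higher in library 4 than in library 2.

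Of 47 cytochrome P450 genes at 1 CPM, 6 (12.8%) were higher and 3 (6.38%) lower. Of 51 UDP-glucuronosyltransferases at 1 CPM, 3 were higher, a share of 5.88% that lies near that of all genes, and 1 was lower. cyp-13A5 had 100 and 120 CPM in libraries 2 and 4, and 47.1, 38.7 and 60.9 CPM in libraries 1, 3 and 5. ugt-18 had 2.98 and 5.04 CPM in libraries 2 and 4, and 0.287, 0.170 and 0.164 CPM in libraries 1, 3 and 5, a log2 difference of 4.28. The metal-binding genes mtl-1 (1.09) and ftn-1 (2.14), a metallothionein and a ferritin of the intestine, were also separated. mtl-1 had 38.7 and 52.3 CPM in libraries 2 and 4, and 28.4, 15.1 and 20.6 CPM in libraries 1, 3 and 5.

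Receptor and signalling families held a few members each. Of 267 nuclear hormone receptors, 156 reached 1 CPM. By the 2-fold rule 6 (3.85%) were higher and 1 was lower, beside 6.73% and 0.838% of all genes. At any fold 88 of the 156 were higher without overlap and 10 were lower, where 25.2% and 18.7% of all genes at 1 CPM were. By means alone 123 were higher and 33 lower, and the family's median log2 difference was 0.32, so the family was shifted widely but by small folds. nhr-99 had 5.95 and 8.35 CPM in libraries 2 and 4, and 1.91, 1.15 and 1.63 CPM in libraries 1, 3 and 5. nhr-173 and nhr-19 had log2 differences of 1.29 and 1.23. Of 80 neuropeptide genes at 1 CPM, 3 (3.75%) were higher. flp-10 had 11.4 and 14.1 CPM in libraries 2 and 4, and 6.03, 6.02 and 6.17 CPM in libraries 1, 3 and 5. flp-34, nlp-30 and the insulin-like gene ins-4 were separated at log2 differences of 1.00, 1.72 and 1.24.

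Body tissue lists differed by level more than by separated genes. The 17 intestine genes at 1 CPM summed to 11160 and 10820 CPM in libraries 2 and 4, and 8184, 7205 and 7965 CPM in libraries 1, 3 and 5, and 15 of them had a higher mean, but 1 (ftn-1) was separated. The 24 body wall muscle genes summed to 5153 and 5481 CPM in libraries 2 and 4, and 3984, 4112 and 3523 CPM in libraries 1, 3 and 5, with none separated. None of 21 neuron genes, 16 uterus, spermatheca and sheath genes, 4 coelomocyte genes, 79 cytosolic ribosomal protein genes or 33 proteasome genes was separated.

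The 99 lower genes shared less. acox-1.4, an acyl-CoA oxidase of peroxisomes, had 10.9 and 10.6 CPM in libraries 2 and 4, and 22.6, 27.7 and 22.6 CPM in libraries 1, 3 and 5. hrg-7, a heme-responsive gene, had 15.3 and 14.3 CPM in libraries 2 and 4, and 34.2, 44.9 and 23.2 CPM in libraries 1, 3 and 5. skr-8, a Skp1-related gene of ubiquitin ligases (chromosome IV, 17165250 to 17165834), had 7.73 and 9.19 CPM in libraries 2 and 4, and 25.1, 13.9 and 12.4 CPM in libraries 1, 3 and 5. acox-1.4 was level within each set, while skr-8 was highest in library 1. gst-4, a glutathione S-transferase, had 4.57 and 3.78 CPM in libraries 2 and 4, and 11.7, 10.5 and 5.88 CPM in libraries 1, 3 and 5.

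col-158 went against its family, with 0.806 and 0.391 CPM in libraries 2 and 4, and 3.30, 4.87 and 2.87 CPM in libraries 1, 3 and 5. Of 17 cytosolic heat shock genes, 11 reached 1 CPM, of which 3 (27.3%) were lower, beside 0.838% of all genes, and hsp-12.3 was higher. hsp-16.1, a small heat shock gene with near-identical copies, had 0.392 and 0 CPM in libraries 2 and 4, and 1.44, 2.04 and 1.28 CPM in libraries 1, 3 and 5. Of 331 F-box genes, which encode substrate adaptors of ubiquitin ligases, 169 reached 1 CPM. Of these, 13 (7.69%) were higher, near the 6.73% of all genes, and 14 (8.28%) lower, beside 0.838% of all genes. fbxa-21 had 5.10 and 6.33 CPM in libraries 2 and 4, and 0.636, 0.491 and 0.837 CPM in libraries 1, 3 and 5. fbxb-35 had 0.762 and 1.38 CPM in libraries 2 and 4, and 3.55, 1.94 and 1.56 CPM in libraries 1, 3 and 5. Without library 1 the lower F-box genes numbered 2, and all lower genes 58. The lower count also rested on other libraries, at 192 without library 3, 277 without library 4 and 180 without library 5.

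The higher genes were spread unevenly over the chromosomes. The X chromosome held 64 of them, 8.05%, against 14.2% of the genes at 1 CPM. Chromosome IV held 208, or 26.2% against 16.8%, and chromosome V held 182, or 22.9% against 18.2%. All MSP genes lie on chromosomes II and IV, 13 and 18 of them. Of the 99 lower genes, 31 (31.3%) were on chromosome II, which held 17.2% of the genes at 1 CPM. Genes of a cluster are not independent of each other, so these shares are given without a test.

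Whether these genes follow sperm transcripts beyond the wild type was tested in the 10 mutant libraries, which had no part in the choice of the sets. In these strains fndc-1 itself had 7.04 to 10.2 CPM in the double mutant and 7.26 to 7.53 CPM in fndc-1, against 36.8 to 47.2 CPM in wild type. For each gene a slope on the sperm score was fitted with strain as a term by the quasi-likelihood test of edgeR, and p-values were adjusted over the 14629 genes tested. The sperm list genes make up the score and were not counted. Of the other 14548 genes, 1246 (8.56%) had a positive slope and 294 (2.02%) a negative one past an adjusted p of 0.05. Double-mutant library 4, with the highest score of 2.31, weighed on the counts, which were 771 positive and 170 negative without it. The negative count was also 595 without double-mutant library 2, 107 without fndc-1 library 4 and 186 without fndc-1 library 3. Double-mutant library 2 stood apart in yolk, with vitellogenins at 2.598% of its counts against 5.90% to 8.76% in the other double mutants, and the part of that in the slopes was not tested beyond leaving the library out.

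Of the 730 genes higher in wild-type libraries 2 and 4 outside the sperm lists, 725 were tested in the mutants. A positive slope was found for 404 (55.7%), a negative one for 4, and 317 (43.7%) did not pass. Their median slope was 0.84 on the log2 scale per unit of score. Of the 13724 tested genes that were separated in neither direction, 841 (6.13%) had a positive slope and the median was 0.00373. Unlike the 725, these include genes under 1 CPM in wild type, which could not be separated, so the shares are not over like genes. The 404 genes were 32.4% of all genes with a positive slope. Without double-mutant library 4 the 404 became 350, and within a strain 382 genes passed in the double mutant alone and 349 in fndc-1 alone.

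**Figure D4:**
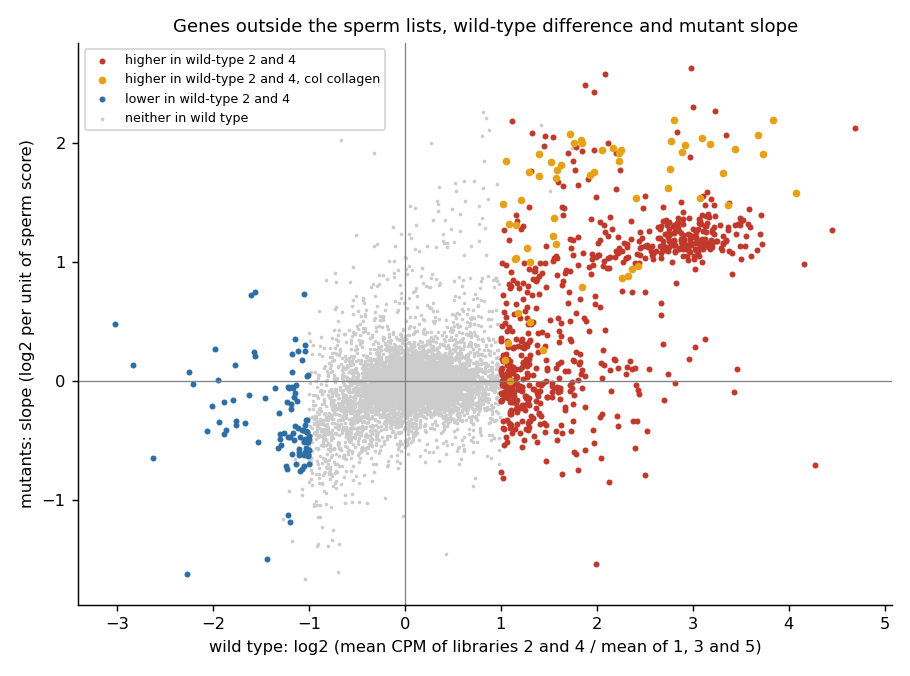
Log2 difference in wild type (horizontal axis, drawn within 5 units of 0) against the slope on the sperm score in the 10 mutant libraries (vertical axis, log2 per unit, drawn within 3 units of 0), 1 point per gene outside the sperm lists that reached 1 CPM in a wild-type set. The col genes higher in libraries 2 and 4 (orange) lie high, with a median slope of 1.73, and the other higher genes (red) run from -1.54 to 2.63, with a median of 0.69 and 185 of 667 below 0.

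gipc-1 and gipc-2 rose with the score as sperm genes did. gipc-1 had 10.3, 10.95, 9.49, 40.3 and 7.60 CPM in double-mutant libraries 1 to 5, and 7.69, 4.23, 5.03, 20.7 and 8.57 CPM in fndc-1 libraries 1 to 5. The highest library of each strain was library 4, which was also its highest in the score. The slope was 1.10 (SE 0.0526, adjusted p = 1.37e-06, edgeR), and for gipc-2 it was 1.14 (SE 0.0527, adjusted p = 1.37e-06), with 1.09 and 1.18 without double-mutant library 4. In wild type the log2 difference divided by the difference in score between the sets, 2.42, came to 1.16 and 1.22 for gipc-1 and gipc-2. snf-5 had a slope of 1.20 (adjusted p = 0.000217), and its wild-type value per unit of score was also 1.20. msrp-2 (1.11, adjusted p = 7.72e-06) and hmit-1.1 (1.51, adjusted p = 1.75e-05) passed too.

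Collagens rose with the score in the mutants. Of the 58 col genes higher in wild type, 54 (93.1%) had a positive slope, with a median of 1.73 per unit of score, beside a median of 0.76 for the wild-type difference per unit. Without double-mutant library 4 the median slope was 1.59, and without wild-type library 1 the median wild-type difference per unit was 1.02. For the 667 other higher genes the medians were 0.69 and 0.73, and 350 (52.5%) were positive. Their median slope was 0.48 without double-mutant library 4. The difference between wild type and mutants in these values was not tested. All 8 last-moult collagens passed, also without double-mutant library 4. col-138 had 15.0, 19.8, 11.7, 211.5 and 8.54 CPM in double-mutant libraries 1 to 5, and 3.72, 2.67, 2.09, 26.1 and 7.895 CPM in fndc-1 libraries 1 to 5. Double-mutant library 4 stood far above every other library. The slope of col-138 was 1.96 (95% interval 1.76 to 2.16, adjusted p = 1.37e-06), against 0.89 per unit in wild type. Without wild-type library 1 the wild-type value was 2.03, inside that interval, and without double-mutant library 4 the slope was 1.78. Leaving out wild-type library 1 did not do the same for bli-6 and col-38 of the same list. Their wild-type values of 1.54 and 1.41 stayed below their intervals of 1.57 to 1.83 and 1.52 to 1.94. Those gaps rested on double-mutant library 4. Without it the slopes were 1.58 (95% interval 1.41 to 1.75) for bli-6 and 1.42 (1.2 to 1.64) for col-38, and these intervals hold the wild-type values.

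Of the 17 dpy, rol and sqt collagens, 10 (58.8%) rose and 2 (11.8%) fell, beside 8.56% and 2.02% of all genes. The counts were 9 and 0 without double-mutant library 4, and 10 and 7 without double-mutant libraries 2 and 4. dpy-13 had 16, 18.1, 16, 246 and 8.62 CPM in double-mutant libraries 1 to 5, and 2.77, 2.16, 2.05, 28.4 and 6.61 CPM in fndc-1 libraries 1 to 5. Its slope was 2.05 (95% interval 1.83 to 2.27), against 0.64 per unit in wild type. Without wild-type library 1 the wild-type value was 0.93, still below that interval, and without double-mutant library 4 the slope was 1.92. bli-6 (slope 1.70, with 0.79 per unit in wild type and 1.54 without wild-type library 1), dpy-5 (1.98), col-73 (2.03) and rol-6 (2.08) rose as well, each with an adjusted p under 0.05. Of all 123 col genes tested, 79 (64.2%) rose and 5 (4.07%) fell, with 62 and 0 without double-mutant library 4, and 69 and 20 without double-mutant libraries 2 and 4. col-7, with the largest wild-type difference among the collagens named, had a slope of 1.58 (95% interval 1.14 to 2.02), beside 1.68 per unit in wild type. Without double-mutant library 4 its slope was 2.11 (95% interval 1.68 to 2.53), with the wild-type value at the lower end of that interval. col-124 did not pass (slope 0.17, adjusted p = 0.372).

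Of the skin signalling list, 15 of 58 (25.9%) rose in the mutants, beside 8.56% of all genes. The count was 6 without double-mutant library 4, where 771 of all genes rose. grd-6 had a slope of 2.10 (adjusted p = 0.000126) and grl-16 one of 1.64 (adjusted p = 9.42e-05), and both passed without double-mutant library 4, at 2.19 and 1.23. ptr-22, a patched-related gene separated in wild type at 6.32 and 8.37 CPM in libraries 2 and 4, and 2.26, 1.44 and 2.48 CPM in libraries 1, 3 and 5, had a slope of 0.06 (95% interval -0.34 to 0.46).

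**Figure D5:**
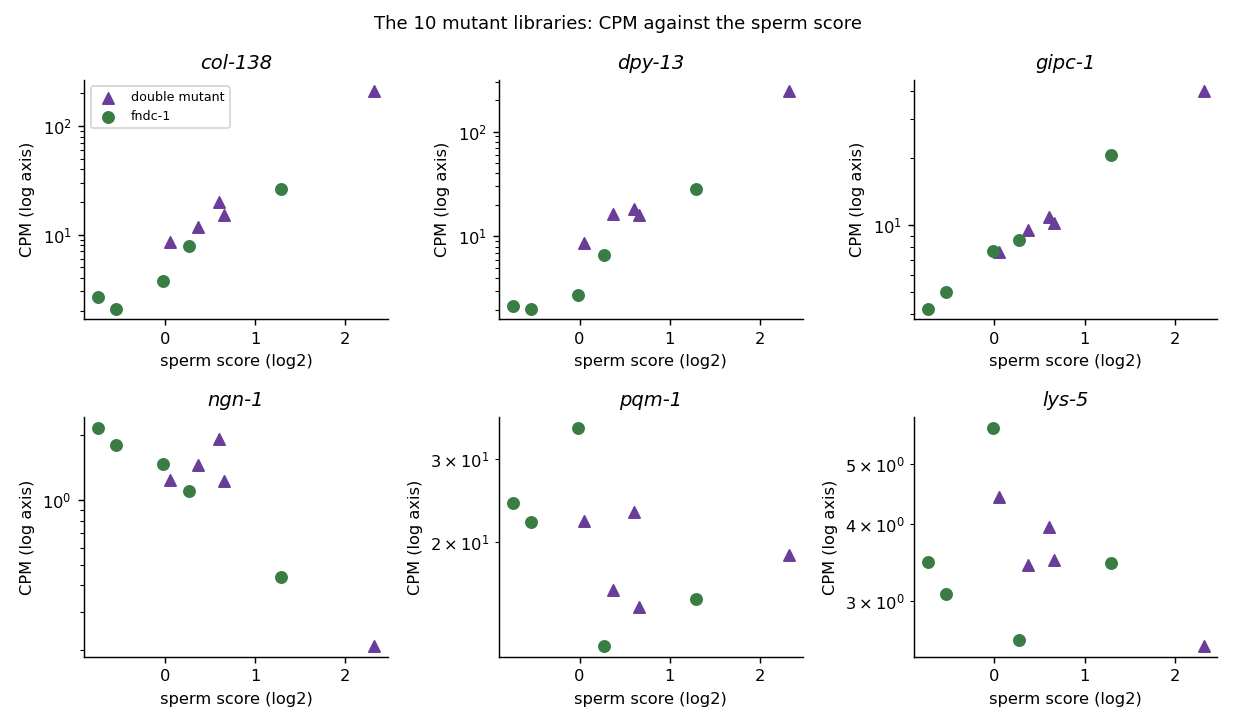
CPM (log axis) against the sperm score in the 5 double-mutant (triangles) and 5 fndc-1 (circles) libraries for 6 genes. col-138, dpy-13 and gipc-1 climb with the score through both strains, ngn-1 is lowest in the highest-scoring library of each strain, and pqm-1 and lys-5 show no trend past the test.

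The defence and metabolic families were set beside 8.56% of all genes rising and 2.02% falling in the mutants. Of the C-type lectins tested, 12 (9.68%) rose and 9 (7.26%) fell, with 7 and 3 without double-mutant library 4. Of 60 UDP-glucuronosyltransferases 5 rose and 1 fell, with 2 and 0 without that library, and ugt-66, separated in wild type, had a slope of 1.47 (adjusted p = 0.0015). Of 62 cytochrome P450 genes 0 rose and 1 fell, with 0 and 2 without that library. nlp-30 rose (0.92, adjusted p = 0.0228) but did not pass without double-mutant library 4 (0.43, adjusted p = 0.624). None of 12 lysozymes tested passed in either direction. lys-5 had 3.50, 3.95, 3.43, 2.54 and 4.42 CPM in double-mutant libraries 1 to 5, and 5.71, 3.47, 3.08, 3.46 and 2.599 CPM in fndc-1 libraries 1 to 5. Its slope was -0.18 (95% interval -0.48 to 0.11, adjusted p = 0.692), an interval that does not reach the 0.48 per unit of the wild-type libraries. pqm-1 had 14.6, 23.2, 15.9, 18.8 and 22.2 CPM in double-mutant libraries 1 to 5, and 34.9, 24.2, 22.1, 15.2 and 12.1 CPM in fndc-1 libraries 1 to 5. Its slope was -0.18 (95% interval -0.52 to 0.15), beside 0.47 per unit in wild type. The intervals also lay below the wild-type values for cyp-13A5 (slope -0.16, interval -0.39 to 0.07, wild type 0.48), mtl-1 (0.07, -0.09 to 0.23, wild type 0.45), flp-10 (0.02, -0.17 to 0.21, wild type 0.44) and nhr-99 (0.18, -0.07 to 0.43, wild type 0.91). The wild-type values carry no interval and belong to genes kept for a 2-fold difference without overlap. The gap between wild type and mutants was not tested.

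clec-47 (slope 0.30, interval 0.07 to 0.52, adjusted p = 0.18) did not pass, and its interval holds the wild-type 0.49. A slope that misses the threshold does not show that a gene is level. Of the 4 genes with opposite signs, ugt-18 had the largest wild-type difference and fell by 0.71 per unit of score in the mutants (adjusted p = 0.0423). It did not pass without double-mutant library 4, at a slope of -0.83 (adjusted p = 0.155). The other 3 were gem-4, T19C9.8 and the cathepsin B-like cpr-3, with slopes of -0.40, -0.77 and -0.40, and none of these 3 passed without double-mutant library 4 (adjusted p = 0.0967, 0.234 and 0.19).

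Of the 99 genes lower in wild type, 21 (21.2%) had a negative slope, 1 (dpy-6, which did not pass without double-mutant library 4) a positive one and 77 did not pass, with a median slope of -0.41. Of the genes separated in neither direction, which include genes under 1 CPM in wild type, 1.96% had a negative slope. The 21 became 2 without double-mutant library 4 and 12 without fndc-1 library 4. ngn-1 had 1.23, 1.93, 1.46, 0.209 and 1.23 CPM in double-mutant libraries 1 to 5, and 1.46, 2.16, 1.80, 0.439 and 1.11 CPM in fndc-1 libraries 1 to 5. Library 4 was the lowest of each strain, and the slope was -1.19 (SE 0.196, adjusted p = 0.00168). Without double-mutant library 4 it was -0.95 (adjusted p = 0.0431). Among 26 lineage specifiers tested, 8 (30.8%) fell and 0 rose, beside 2.02% of all genes falling, and 3 fell without double-mutant library 4.

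The homeobox gene mls-2 (slope -0.74, adjusted p = 0.00325), col-158 (-0.65, adjusted p = 0.00373), fbxb-35 (-0.70, adjusted p = 0.00965), clec-145 (-0.76, adjusted p = 0.0142) and cnc-7 (-1.50, adjusted p = 0.0156) fell with the score. In wild type mls-2, clec-145 and cnc-7, a caenacin antimicrobial peptide gene, had log2 differences of -1.23, -1.10 and -1.44. None of these 5 genes passed without double-mutant library 4, where their slopes were -0.66, -0.42, -0.50, -0.68 and -1.11. fbxb-35 also did not pass without fndc-1 library 4 (slope -0.70, adjusted p = 0.0559). acox-1.4 did not pass, with a slope of 0.07 (95% interval -0.10 to 0.24) beside -0.49 per unit in wild type. Of 245 F-box genes tested 29 (11.8%) fell and 3 (1.22%) rose, beside 2.02% and 8.56% of all genes, and 4 fell and 0 rose without double-mutant library 4. None of the 6 vitellogenins passed.

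The slope did not differ between the double mutant and fndc-1 for any of the 14548 genes past adjustment in a quasi-likelihood interaction test of edgeR, while 1212 had an unadjusted p under 0.05.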

How the data were processed

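The authors deposited raw counts per gene for 15 libraries. Reads had been trimmed, aligned and counted with tools that the submitters' processing notes list as Subread 1.6.1 (featureCounts), STAR 2.6.0c and Trimmomatic 0.36, on WBcel235. The strand setting, annotation release and handling of multiply mapped reads of that counting is not given in the sources used here, so counts of overlapping, antisense and near-identical genes are uncertain. Totals ran from 46984106 to 61921123.

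From these counts, TMM factors were computed with edgeR 4.0.16 (R 4.3.3) on the 15032 genes kept by filterByExpr, then CPM, and log2 CPM with a prior count of 2. The mutant slope was tested two-sided with glmQLFit and glmQLFTest on 10 libraries (strain and sperm score, 7 residual degrees of freedom) with Benjamini-Hochberg adjustment, a procedure tested on simulated data. The SE is the slope divided by the square root of F, and 95% intervals use its normal quantile of 1.96. Positions are from the Ensembl annotation of WBcel235, which matched 18971 gene names and not 1220.

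The members, the 43 gene lists and the sets were chosen with earlier results of these data known. Genes were named by rule: up to 3 separated members per list with the highest CPM, the 8 widest gaps per direction at 5 CPM or more, up to 6 per direction by adjusted p in the mutants, the vitellogenins and the male markers. Exceptions, named after their values were seen, are msp-32, msp-58, msp-63, msp-74, col-19, col-63, col-119, gem-4, T19C9.8, cpr-3, dpy-6, fndc-1, genes at the fold threshold and the families of the closing observations. Other scalings, filters, scores, DESeq2 1.42.0, a replicate block and libraries left out were tried.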

Additional observations from a re-analysis of the deposited data

Results flagged for a closer look

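Of 131 groups of 5 libraries examined, 3 held a library whose gap to its nearest neighbour exceeded 0.71 of the range of the group. About 5% of groups of unselected values pass this criterion by chance. Many of the groups were genes named because libraries 2 and 4 lay apart from libraries 1, 3 and 5, and that rate does not apply to them. In wild type, library 1 stood above the other libraries in the score of the insulin-like peptides, at 0.411 with the next at -0.0816. Library 1 also stood above the others in the histone score, at 0.156 with the next at 0.0495. In the double mutant, library 4 stood above the others in the sperm score, at 2.31 with the next at 0.656.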

How the results depend on the processing

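Wild-type counts moved mainly with the thresholds. At 1.5-fold, 1446 genes were higher and 458 lower in libraries 2 and 4, at 4-fold 379 and 8, and at a minimum of 5 CPM 336 and 30. Leaving out 1 wild-type library gave 710 to 886 higher and 58 to 277 lower genes. Other scalings left both counts within 1.5 times, and the median log2 difference of all genes stayed between -0.06 and -0.01.

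In the mutants, leaving out 1 library gave 771 to 1409 positive and 107 to 595 negative slopes, with 350 to 413 of the genes higher in wild type and 2 to 28 of the lower ones passing the same way. Positive slopes numbered 573 in fndc-1 alone. Negative slopes numbered 110 with upper-quartile factors, 596 with DESeq2, 14 in the double mutant alone, 490 in fndc-1 alone and 1265 without double-mutant libraries 2 and 4. The 21 genes lower in wild type with a negative slope became 8 with upper-quartile factors, 36 with DESeq2 and 1 in the double mutant alone. With double-mutant libraries 2 and 4 and fndc-1 library 4 all left out, a choice made after seeing the data, the counts were 110 positive, 23 negative, 102 and 0. The cause of these moves was not tested.

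A replicate block gave 0 positive and 0 negative slopes and 0 of either wild-type set. That edgeR fit had 3 residual degrees of freedom, and 461 positive and 66 negative slopes reached an unadjusted p under 0.05. Same-numbered libraries of the mutant strains had correlations of -0.23, 0.35, 0.05, 0.66 and -0.05, in order of their numbers, and the main fit used no block. Library 4 had the highest score of both strains, 2.31 in the double mutant and 1.29 in fndc-1. Anything shared by the libraries numbered 4 can therefore not be told apart from the score. Of 251 repeats of the 12 named slopes, 215 kept their call, 36 lost it and 0 changed sign. Without wild-type library 1 the wild-type difference per unit of sperm score, a comparison added after seeing the data, became 2.03 for col-138 and 1.54 for bli-6, against 0.89 and 0.79. Depth was not limiting at the 1 CPM minimum, which stood for 45.9 to 60.9 counts.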

Other observations

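Some gene families outside the lists were picked after their values had been seen, and their counts are descriptions. Over all genes, 6.73% were higher and 0.838% lower in wild type, and 8.56% had a positive and 2.02% a negative slope in the mutants. Of 10 nspd genes, a nematode-specific peptide family, all 8 at 1 CPM were higher in wild-type libraries 2 and 4. Their sum was 48.1 and 39.4 CPM in libraries 2 and 4, and 8.05, 7.21 and 5.33 CPM in libraries 1, 3 and 5, and 9 of 9 tested had a positive slope in the mutants. The msrp family, with 4 of 7 members higher in wild type, had 6 of 7 positive slopes. Of 14 abu genes, 5 were higher, and 10 of 11 tested had a positive slope; their sum was 28.7 and 23.4 CPM in libraries 2 and 4, and 18.1, 4.57 and 27.8 CPM in libraries 1, 3 and 5, so library 3 alone was far down.

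The pals family, part of which answers infection of the intestine, gave another pattern. Of 38 pals genes 14 reached 1 CPM and 8 were higher, with sums of 64.5 and 76.1 CPM in libraries 2 and 4, and 40.2, 35.8 and 38.4 CPM in libraries 1, 3 and 5. In the mutants 1 of 20 tested had a positive slope, beside 8.56% of all genes. The aspartyl proteases summed to 11940 and 11970 CPM in libraries 2 and 4, and 7845, 6364 and 7517 CPM in libraries 1, 3 and 5. The cathepsin B-like cpr genes summed to 5269 and 5296 CPM in libraries 2 and 4, and 3615, 2704 and 3698 CPM in libraries 1, 3 and 5. Of 11 asp genes tested 1 rose and 1 fell with the score, and of 6 cpr genes 2 fell, beside 8.56% of all genes rising and 2.02% falling. The F-box genes divided by class, with 13 fbxa genes higher and 0 lower, and 0 fbxb genes higher and 13 lower, the fbxb sum being 68.1 and 97.9 CPM in libraries 2 and 4, and 182, 132 and 121 CPM in libraries 1, 3 and 5. Without wild-type library 1 the lower fbxb genes numbered 2 and the higher fbxa genes 15. skr-8, skr-9 and skr-10 were lower and skr-5 was higher.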
